A study of Mus musculus with 82 samples.

Results

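The follicular helper genes described here were Cxcr5, Bcl6, Maf, Slamf6, Sh2d1a, Pou2af1 and Ascl2, found by symbol in all 3 deposited count tables, 7 of the 21823 genes that the tables share. They were followed in ovalbumin-specific T cells of mice given pGal, OVA or saline. OT-II cells are CD4 T cells and OT-I cells are CD8 T cells whose transgenic receptors recognise peptides of ovalbumin. pGal was ovalbumin (OVA) carrying a synthetic glycosylation, and OVA was the plain protein. Wild-type mice received both cell types by transfer, saline controls included, and spleens and lymph nodes were pooled 4 days after treatment before the cells were sorted.

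In the prophylactic experiment the mice were treated 1 day after transfer, and each library held cells of 3 mice, sorted into Trizol. It had 5 pGal, 4 OVA and 5 saline libraries of OT-II cells and 5, 5 and 5 of OT-I cells, in 2 batches that were deposited as separate tables. In the therapeutic experiment all mice, saline controls too, were first immunized with OVA in complete Freund's adjuvant and were treated 1 month later. Its libraries held cells of 1 mouse each, sorted into buffer and snap frozen. There were 10 pGal, 8 OVA and 7 saline libraries labelled OT-II and 10, 10 and 8 labelled OT-I. The OVA dose was 5 µg, and for pGal the labels give both 5 µg and a molar antigen equivalent of the OVA dose. The strain label was C57BL/6 in the prophylactic experiment, and in the therapeutic one the number after the slash changed from library to library, so that it was not read as a strain. The libraries hold the transferred cells as sorted, in bulk, so fewer cells of a type and less RNA per cell cannot be told apart.

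Follicular helper T cells are CD4 T cells that enter B cell follicles and drive germinal centre responses. BCL6 is the repressor that defines the lineage, ASCL2 induces the chemokine receptor CXCR5 in mouse T cells, and CXCR5 leads cells toward CXCL13 in the follicle. MAF promotes production of the helper cytokines IL-4 and IL-21, SLAMF6 is an adhesion and signalling receptor at the contact between T and B cells, and SAP, the product of Sh2d1a, is the adaptor through which SLAM receptors signal. Pou2af1 encodes OCA-B, a coactivator of octamer-binding factors that B cells express strongly and some T cells use as well. Cxcr5 is likewise a gene of mature B cells, and CXCR5, SLAMF6 and SAP are also found in CD8 T cells.

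In the GRCm38 annotation Cxcr5 lies on chromosome 9 (chr9:44511787-44561877, minus strand), Bcl6 on chromosome 16 (chr16:23965052-23988852, minus), Maf on chromosome 8 (chr8:115682942-115707794, minus) and Slamf6 on chromosome 1 (chr1:171917515-171953170, plus). Sh2d1a is on the X chromosome (chrX:42502453-42529330, plus), Pou2af1 on chromosome 9 (chr9:51213708-51240080, plus) and Ascl2 on chromosome 7 (chr7:142966829-142969264, minus). Exons of Cxcr5 overlap Bcl9l, those of Bcl6 overlap Gm37419, those of Maf overlap Gm15655 and those of Sh2d1a overlap Tenm1, each on the opposite strand. No source used here says whether strand was used in quantification, so the counts of these 4 members may hold reads of the partner. The promoters below are shown because Slamf6 was higher after both antigens in prophylactic OT-I cells and after pGal in OT-II cells, and because Bcl6 defines the lineage. Each is the RefSeq window (GRCm38.p6) of 250 bases before and 50 after a start site, written 5′ to 3′ on the gene's strand. Capitals mark CANNTG, the E-box that ASCL2 and other basic helix-loop-helix factors bind, in Slamf6, and TTCNNNGAA, the core of STAT sites that BCL6 sites resemble, in Bcl6.
Slamf6, chr1:171917212-171917511, plus strand: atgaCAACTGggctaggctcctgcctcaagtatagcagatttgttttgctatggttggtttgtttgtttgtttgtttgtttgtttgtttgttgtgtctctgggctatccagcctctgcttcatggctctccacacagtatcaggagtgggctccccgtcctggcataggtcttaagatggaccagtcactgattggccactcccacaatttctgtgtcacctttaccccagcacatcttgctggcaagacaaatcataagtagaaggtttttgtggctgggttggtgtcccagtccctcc
Bcl6, chr16:23988803-23989102, minus strand: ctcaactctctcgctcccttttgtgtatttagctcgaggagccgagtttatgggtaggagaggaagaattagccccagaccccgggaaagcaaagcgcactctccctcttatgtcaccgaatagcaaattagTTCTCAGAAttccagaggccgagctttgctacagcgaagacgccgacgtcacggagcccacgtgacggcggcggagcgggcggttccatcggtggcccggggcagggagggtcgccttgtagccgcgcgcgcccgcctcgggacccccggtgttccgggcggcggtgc
Bcl6, second start site, chr16:23981234-23981533, minus strand: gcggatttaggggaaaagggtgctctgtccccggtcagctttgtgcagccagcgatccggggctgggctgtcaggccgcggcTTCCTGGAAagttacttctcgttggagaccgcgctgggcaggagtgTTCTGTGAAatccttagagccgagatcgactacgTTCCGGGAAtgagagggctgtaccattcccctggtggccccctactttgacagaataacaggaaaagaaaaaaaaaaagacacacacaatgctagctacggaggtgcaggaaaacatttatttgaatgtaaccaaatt
On both strands, 72.3% of 32851 promoters of the same length held an E-box and 8.3% held TTCNNNGAA. The Slamf6 window held 1 E-box, the first Bcl6 window 1 TTCNNNGAA and the second Bcl6 window 3. These matches describe the letters only. Cxcr5, Maf and Sh2d1a are named here without a promoter.

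Library totals ran from 21.2 to 68.2 M counts in the 29 prophylactic libraries and from 22.6 to 62.5 M in the 53 therapeutic ones. Levels below are CPM (counts per M counts of a library) with TMM scaling over all 82 libraries, and they are compared between libraries for 1 gene at a time. The label of each library was checked by Cd4 against Cd8a. In 11 therapeutic libraries the other lineage's gene was the higher one: 6 labelled OT-I had Cd4 at 402 to 1444 CPM and Cd8a at 0.650 to 2.67 CPM, and 5 labelled OT-II had Cd4 at 1.93 to 4.22 CPM and Cd8a at 832 to 1353 CPM. They were pGal 5 and 7, OVA 6 and 8 and saline 3 under both labels, and saline 6 labelled OT-I. Medians of the members other than Sh2d1a went with the lineage gene in them, though the ranges of several overlapped those of the kept libraries. Sh2d1a had a median of 135 CPM in the 5 labelled OT-II and 126 CPM in the other 20 labelled OT-II. Maf ran from 48.3 to 134.8 CPM in the 6 libraries labelled OT-I, against 4.10 to 15.2 CPM in the other 22 labelled OT-I, and from 6.12 to 12.4 CPM in the 5 labelled OT-II, against 32.4 to 155.6 CPM in the other 20 labelled OT-II. These 11 libraries were left out of the comparisons below and moved to no other group, which left 8 pGal, 6 OVA and 6 saline libraries of OT-II cells and 8, 8 and 6 of OT-I cells. In the prophylactic experiment every library went with its label, but 2 OT-I libraries of batch 1 also held over 100 CPM of Cd4 (pGal 2, 205.54 CPM, and OVA 1, 161 CPM) and 1 OT-II library of batch 2 held 112.83 CPM of Cd8a (OVA 2).

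B cell transcripts were uneven. Cd79a, part of the B cell receptor, exceeded 100 CPM in 5 prophylactic libraries and in 5 of the 42 therapeutic ones kept. In prophylactic OT-II cells these were pGal 3 of batch 1 (1017 CPM), OVA 2 of batch 2 (1333 CPM) and saline 1 of batch 2 (162 CPM), and in OT-I cells OVA 2 of batch 2 (101 CPM) and saline 1 of batch 2 (314 CPM). The 5 therapeutic ones were OT-II libraries at 108.66 to 116.32 CPM. Results are given with and without these 10 libraries where they differ. All p-values are from edgeR's quasi-likelihood test, adjusted by Benjamini-Hochberg over all genes tested, a member is called where the adjusted p is under 0.05, and the p-values measure the spread between libraries.

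In prophylactic OT-II cells, pGal was followed by higher Cxcr5, Maf and Slamf6 than saline, and Maf and Slamf6 were also higher than after OVA. Cxcr5, the follicle-homing receptor, was at 66.1, 72.1 and 141.6 CPM in batch 1 and 123 and 137 CPM in batch 2 after pGal, at 50.6, 51.1, 99.0 and 276 CPM after OVA, against 10.9, 5.22 and 8.66 CPM in batch 1 and 36.6 and 10.9 CPM in batch 2 after saline. Every antigen library lay above every saline library. The highest value of each group was that of a library rich in Cd79a. The difference of pGal from saline was 3.13 on the log2 scale (SE 0.45, adjusted p = 8.59e-04) and that of OVA from saline 2.87 (SE 0.46, adjusted p = 0.0322), while pGal and OVA libraries overlapped (0.26, 95% interval −0.72 to 1.24, adjusted p = 0.899). The 2 comparisons with saline share their saline libraries.

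Maf, the cytokine-promoting factor, was at 23.7, 18.1, 14.0, 17.8 and 19.5 CPM after pGal, at 6.95, 8.03, 7.34 and 8.10 CPM after OVA, against 9.29, 5.14, 7.03, 2.498 and 5.29 CPM after saline. All 5 pGal libraries were above all others, and OVA and saline libraries overlapped. Maf was higher after pGal than after saline by 1.71 (SE 0.27, adjusted p = 0.00143) and than after OVA by 1.25 (SE 0.29, adjusted p = 0.0447), and its difference of OVA from saline was 0.45 (95% interval −0.16 to 1.07, adjusted p = 0.788). Slamf6, the SLAM receptor, was at 576, 558, 357, 647 and 593 CPM after pGal, at 267, 263, 329 and 214 CPM after OVA, against 185, 181, 185, 167 and 290 CPM after saline. The lowest pGal value, in the library richest in Cd79a of its group, was still above every OVA and saline value. Slamf6 exceeded saline by 1.43 (SE 0.17, adjusted p = 1.42e-04) and OVA by 1.03 (SE 0.18, adjusted p = 0.0105), and OVA differed from saline by 0.40 (95% interval 0.03 to 0.77, adjusted p = 0.627).

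The other 4 members were not called in prophylactic OT-II cells. Bcl6, the lineage factor, was at 25.1, 26.6, 47.1, 39.9 and 29.6 CPM after pGal, at 14.8, 20.7, 37.3 and 62.0 CPM after OVA, against 19.6, 14.9, 12.9, 36.2 and 31.2 CPM after saline. The 3 groups overlapped, with a difference of pGal from saline of 0.70 (SE 0.29, adjusted p = 0.145). Sh2d1a, the SAP adaptor, was at 124, 103, 64.8, 140 and 145 CPM after pGal, at 94.7, 103, 110 and 32.3 CPM after OVA, against 78.6, 73.9, 76.5, 50.8 and 84.8 CPM after saline. Its lowest value in each group was in the library with the most Cd79a, and the difference of pGal from saline was 0.65 (SE 0.29, adjusted p = 0.178). Pou2af1 and Ascl2 are taken up below with B cell transcripts and with counts near 0.

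Against saline, pGal therefore passed the test for 3 of 7 members, all higher, where 11.7% of all 14128 genes passed. OVA passed for 1 of 7, against a background of 0.163%, and pGal against OVA for 2 of 7, against 1.87%. The median log2 difference of the 7 members between pGal and saline was 1.43, beside 0.04 over all genes tested.

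**Figure D1:**
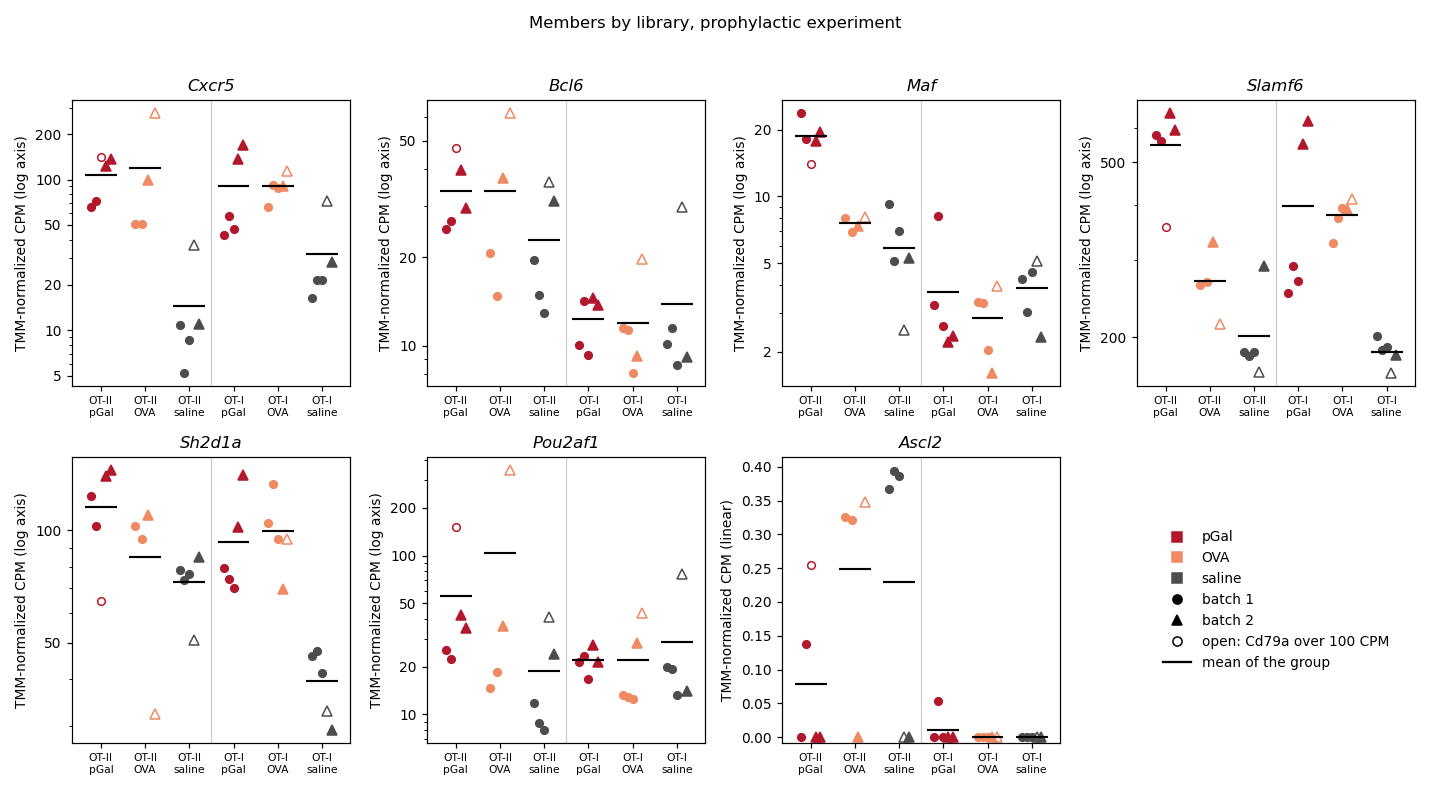
CPM of the 7 members (log axes, linear for Ascl2) in each prophylactic library, by cell type and treatment, with group means as lines, triangles for batch 2 and open symbols for libraries with Cd79a over 100 CPM. The 5 pGal libraries of OT-II cells sit above all OVA and saline libraries for Maf (14.0 to 23.7 CPM) and Slamf6 (357 to 647 CPM).

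The batches gave the same directions with different adjusted p, and a difference between batches in the response was not tested. Within batch 1, pGal exceeded saline for Cxcr5 by 3.49 (adjusted p = 0.00244), for Maf by 1.35 (adjusted p = 0.0175) and for Slamf6 by 1.42 (adjusted p = 0.00203) in edgeR. Within batch 2, with 6 libraries, the differences were 2.43 (adjusted p = 0.277), 2.25 (adjusted p = 0.196) and 1.43 (adjusted p = 0.201), and no gene of 13753 passed. Cxcr5 after OVA exceeded saline by 2.61 in batch 1 (adjusted p = 0.357) and 3.02 in batch 2 (adjusted p = 0.851), so neither batch alone called it. Between pGal and OVA, Slamf6 differed by 0.90 in batch 1 (adjusted p = 0.0452) and 1.17 in batch 2 (adjusted p = 0.526), and Maf by 1.31 (adjusted p = 0.0778) and 1.24 (adjusted p = 0.526).

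Without the 3 OT-II libraries rich in Cd79a, 5 of 7 members were called between pGal and saline, where 14.7% of all 14030 genes were. Sh2d1a then exceeded saline by 0.63 (adjusted p = 0.00115) and Pou2af1 by 1.07 (adjusted p = 0.00221), beside 3.21 for Cxcr5, 1.61 for Maf and 1.42 for Slamf6, and Bcl6 was at 0.47 (adjusted p = 0.135) in edgeR. Cxcr5 after OVA was 2.76 above saline (adjusted p = 2.01e-04), and between pGal and OVA Maf differed by 1.44 (adjusted p = 0.00588) and Slamf6 by 1.00 (adjusted p = 7.00e-04). With single libraries left out in turn, Cxcr5 between OVA and saline lost its call in 10 of 14 cases (adjusted p up to 0.119), keeping it only without pGal 3 of batch 1 or without saline 1, OVA 1 or OVA 2 of batch 2. Maf between pGal and OVA also lost it in 10 of 14 (adjusted p up to 0.168), keeping it without pGal 3 or saline 1 of batch 1 or saline 1 or OVA 2 of batch 2.

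Other genes of the follicular pathway in prophylactic OT-II cells came from 6 lists. Of 10 further transcription factors, 6 rose after pGal against saline and none fell. Tox2, a factor of follicular helper cells, averaged 24.6 ± 10.6 CPM after pGal and 3.09 ± 1.63 CPM after saline (SD, n = 5 each; log2 difference 2.93, edgeR adjusted p = 4.15e-04). Irf4, an activation factor downstream of the T cell receptor, differed by 1.90 (adjusted p = 0.00299). Of 10 genes that oppose the programme, Prdm1, which encodes the BCL6 antagonist BLIMP-1, fell by 2.14 on the log2 scale (adjusted p = 0.0109), Klf2 fell by 0.51 (adjusted p = 0.00311), and the IL-2 receptor chain Il2rb rose by 2.38 (adjusted p = 1.04e-05). Of 11 surface receptors, 5 rose, led by Cd200 (2.93, adjusted p = 5.81e-06) and the ATP receptor P2rx7 (2.48, adjusted p = 1.04e-05), and Cxcr4 and Il21r fell.

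Among 5 signals to B cells, Tnfsf8, the CD30 ligand, rose by 0.90 (adjusted p = 0.0192). Of 9 other SLAM receptors and adaptor partners, Slamf1 rose by 0.42 (adjusted p = 0.0176). Of 5 T zone and egress receptors, Gpr183 fell by 0.81 (adjusted p = 1.97e-04) and S1pr1 by 0.58 (adjusted p = 0.00163) in edgeR. After OVA against saline, Il2rb (1.39), Cd200 (1.28) and P2rx7 (1.49) were the 3 genes called in all 6 lists, and Tox2 was at 1.59 (adjusted p = 0.207). Between pGal and OVA, Nfatc1 (0.58), Il2rb (0.99), Cd200 (1.65) and P2rx7 (0.99) were higher and Gpr183 lower (−0.58).

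Markers of other cells moved with these groups as well. The summed level of 9 regulatory T cell genes was 592 to 1280 CPM after pGal, 272 to 513 CPM after OVA and 214 to 325 CPM after saline in prophylactic OT-II cells, with none of the 9 at 0 in any group, and 4 of the 9 rose between pGal and saline. Several of these genes, such as Ctla4 and Izumo1r, are also genes of activated CD4 T cells. Foxp3, the defining factor, was at 16.2 to 40.5, 18.2 to 36.8 and 12.2 to 23.9 CPM in the same order, so its ranges overlapped. Summed B cell genes ran from 54.6 to 4627 CPM after pGal, 86.8 to 9000 CPM after OVA and 67.3 to 993 CPM after saline. Summed myeloid genes ran from 149 to 2507, 149 to 2005 and 143 to 514 CPM. The part of these cells in the members' differences was not tested, apart from the values without the Cd79a-rich libraries above.

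In prophylactic OT-I cells, both antigens were followed by higher Cxcr5, Slamf6 and Sh2d1a than saline, and neither Bcl6 nor Maf was called. Slamf6 was at 252, 291 and 269 CPM in batch 1 and 551 and 621 CPM in batch 2 after pGal, at 328, 373, 394, 391 and 412 CPM after OVA, against 202, 187, 190, 166 and 182 CPM after saline. Sh2d1a was at 79.3, 74.0, 70.0, 102 and 141 CPM after pGal, at 104, 133, 94.9, 69.6 and 94.9 CPM after OVA, against 46.1, 47.6, 41.6, 32.9 and 29.3 CPM after saline. For both genes every antigen library was above every saline library. Slamf6 exceeded saline by 1.03 after pGal (SE 0.18, adjusted p = 0.00973) and 1.04 after OVA (SE 0.18, adjusted p = 0.00346), and Sh2d1a by 1.27 (SE 0.21, adjusted p = 0.00779) and 1.36 (SE 0.21, adjusted p = 0.00208).

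Cxcr5 in prophylactic OT-I cells was at 42.6, 57.4 and 47.1 CPM in batch 1 and 138 and 170 CPM in batch 2 after pGal, at 65.7, 92.6, 87.7, 90.7 and 114 CPM after OVA, against 16.4, 21.5 and 21.4 CPM in batch 1 and 71.7 and 28.4 CPM in batch 2 after saline. The 1 saline library at 71.7 CPM, which held 314 CPM of Cd79a, overlapped the antigen libraries, and within each batch all antigen libraries were above all saline libraries. The difference from saline was 1.46 after pGal (SE 0.27, adjusted p = 0.0122) and 1.71 after OVA (SE 0.27, adjusted p = 0.00239). Bcl6 averaged 12.4 ± 2.47 CPM after pGal, 12.0 ± 4.58 CPM after OVA and 13.8 ± 9.00 CPM after saline (SD, n = 5 each), and Maf 3.71 ± 2.503, 2.85 ± 0.986 and 3.86 ± 1.16 CPM. Their 4 differences from saline lay between −0.41 and −0.09 and none was called, and the sign of the Bcl6 difference turned positive without the Cd79a-rich libraries (0.32 after pGal and 0.03 after OVA, not called).

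Each antigen passed the test for 3 of the 6 members tested against saline, where 3.35% of 13802 genes passed after pGal and 5.39% after OVA. Between pGal and OVA no member was called in OT-I cells, and none had an unadjusted p under 0.05. Of all genes 0 passed in edgeR, 420 had an unadjusted p under 0.05, and DESeq2 called 1. The interval of the pGal minus OVA difference was −0.39 to 0.37 for Slamf6, −0.54 to 0.36 for Sh2d1a and −0.82 to 0.32 for Cxcr5.

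The batches of OT-I cells gave the same directions at different sizes, and the difference between batches was not tested. After pGal, Slamf6 exceeded saline by 0.50 in batch 1 (adjusted p = 0.0609) and 1.75 in batch 2 (adjusted p = 0.00641), Sh2d1a by 0.74 (adjusted p = 0.0387) and 1.96 (adjusted p = 0.0217), and Cxcr5 by 1.32 (adjusted p = 0.00483) and 1.61 (adjusted p = 0.0949) in edgeR. After OVA, Slamf6 exceeded saline by 0.95 (adjusted p = 2.09e-04) and 1.21 (adjusted p = 0.0196), Sh2d1a by 1.33 (adjusted p = 2.09e-04) and 1.41 (adjusted p = 0.112), and Cxcr5 by 2.08 (adjusted p = 5.67e-05) and 1.04 (adjusted p = 0.324). Without the Cd79a-rich libraries all 6 calls stood. Without the libraries over 100 CPM of Cd79a and the 2 holding Cd4, pGal kept the call for Cxcr5 (1.77, adjusted p = 0.0232) and not for Slamf6 (0.96, adjusted p = 0.0786) or Sh2d1a (1.30, adjusted p = 0.0625). With every library over 10 CPM of Cd79a left out, which kept 7 of 15, no member was called against saline. After pGal the differences were 2.02 for Cxcr5 (adjusted p = 0.161), 1.24 for Slamf6 (adjusted p = 0.174) and 1.63 for Sh2d1a (adjusted p = 0.194), and after OVA 1.94 for Cxcr5 (adjusted p = 0.165), 1.04 for Slamf6 (adjusted p = 0.249) and 1.51 for Sh2d1a (adjusted p = 0.232). Of all 13819 genes, 3 and 1 were called in those 7 libraries.

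Of the pathway lists in prophylactic OT-I cells, Tox2 (3.25, adjusted p = 0.0354) and Id3 (0.52, adjusted p = 0.0117) were among 3 of 10 transcription factors that rose after pGal. Tox2 was low in these cells, at 3.65 ± 1.83 CPM after pGal and 0.38 ± 0.41 CPM after saline (SD, n = 5 each). The inhibitory receptor Pdcd1 rose by 2.05 (adjusted p = 0.00512) and Cd200 by 1.69 (adjusted p = 0.026), among 4 of 11 receptors. Of 10 opponents, the T-bet gene Tbx21 rose by 1.42 (adjusted p = 0.0152) and Il2rb by 0.82 (adjusted p = 0.0251). Of 9 other SLAM receptors and adaptor partners 4 rose, led by Slamf7 (2.08, adjusted p = 0.00512), with Slamf1, Ly9 and the partner Sh2d2a. After OVA, 3 transcription factors rose, Id3 and Batf among them, and Lef1 fell by 0.35. Pdcd1 (2.79), Tbx21 (2.04) and Slamf7 (2.52) rose after OVA as well. Summed regulatory T cell genes were at 157 to 396 CPM after pGal, 208 to 315 CPM after OVA and 121 to 157 CPM after saline, with 4 of 9 higher after pGal than after saline, and summed B cell genes at 81.3 to 171, 104 to 735 and 78.7 to 2103 CPM. Summed NK cell genes were at 257 to 615 CPM after pGal, 287 to 683 CPM after OVA and 251 to 303 CPM after saline. Their part in the members' differences was not tested.

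After saline, OT-II and OT-I cells of the prophylactic experiment differed in 3 of 7 members, where 18.1% of 14845 genes did. The mice received both cell types, so OT-II and OT-I libraries may share mice. All tests between cell types treated these libraries as independent. Replicate numbers were compared only between treatments within a cell type, so whether they mark shared mice was not tested. In prophylactic batch 2 both replicate numbers gave the same correlation, and each was counted as a pair. Cxcr5 averaged 14.4 ± 12.6 CPM in OT-II and 31.9 ± 22.7 CPM in OT-I cells (SD, n = 5 each; −1.17, SE 0.36, edgeR adjusted p = 0.0236). Within each batch every OT-II library was below every OT-I library except the OT-II library rich in Cd79a. Sh2d1a averaged 72.9 ± 13.0 CPM in OT-II and 39.5 ± 8.07 CPM in OT-I cells and its groups did not overlap (0.89, SE 0.26, adjusted p = 0.0185). Ascl2 was the third, and DESeq2 did not call it (adjusted p = 0.122). Not called in edgeR were Bcl6 (0.72, adjusted p = 0.0939), Maf (0.56, 0.263), Slamf6 (0.10, 0.766) and Pou2af1 (−0.68, 0.539). Without the Cd79a-rich libraries Bcl6 (0.94, adjusted p = 0.00518) and Maf (0.94, adjusted p = 0.032) were called too, 5 of 7 members where 18.8% of genes were. The call for Cxcr5 was lost without OT-II saline 2 of batch 1 (adjusted p = 0.0675), OT-II saline 2 of batch 2 (0.0692) or OT-I saline 1 of batch 2 (0.0852), and that for Sh2d1a without OT-I saline 2 of batch 2 (0.0576).

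The difference between cell types in the response was tested as an interaction. No member was called in the 3 prophylactic interactions in edgeR, where 1.17% of genes were called for pGal against saline, 0.0337% for OVA against saline and 0.505% for pGal against OVA. With unadjusted p under 0.05 there were 3, 4 and 2 members, and DESeq2 called 2, 0 and 1. Nearest was Maf, whose pGal minus saline difference was 1.81 higher in OT-II than in OT-I cells (SE 0.47, adjusted p = 0.0523), then Slamf6 between pGal and OVA (1.03, SE 0.26, adjusted p = 0.0783) and Cxcr5 between pGal and saline (1.65, SE 0.50, adjusted p = 0.125). All 3 were called without the Cd79a-rich libraries, with Maf at 1.59 (adjusted p = 0.0429), Slamf6 at 1.04 (adjusted p = 0.0257) and Cxcr5 at 1.43 (adjusted p = 0.0182).

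In therapeutic OT-II cells, OVA was followed by higher Cxcr5 and Sh2d1a than saline, and pGal by no member that passed the test. Cxcr5 had a lowest, median and highest value of 93.7, 227 and 347 CPM after pGal, 167, 402 and 527 CPM after OVA, against 39.6, 115 and 148 CPM after saline. OVA libraries lay wholly above saline libraries, and pGal libraries overlapped both. The difference of OVA from saline was 1.81 (SE 0.34, adjusted p = 0.0101), that of pGal from saline 1.04 (SE 0.32, adjusted p = 0.259) and that of pGal from OVA −0.77 (SE 0.31, adjusted p = 0.672).

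Sh2d1a ran over 76.1, 126 and 197 CPM (lowest, median, highest) after pGal, 134, 169 and 262 CPM after OVA, against 42.1, 95.8 and 110 CPM after saline. Again OVA and saline libraries did not overlap and pGal libraries lay across both. OVA exceeded saline by 1.05 (SE 0.23, adjusted p = 0.0233), and pGal differed from saline by 0.54 (SE 0.22, adjusted p = 0.445) and from OVA by −0.51 (SE 0.21, adjusted p = 0.672). Maf ran over 61.7, 107 and 156 CPM after pGal, 65.7, 74.6 and 114 CPM after OVA, against 32.4, 58.9 and 74.0 CPM after saline. All 8 pGal libraries exceeded the saline mean while the ranges overlapped, and the difference of pGal from saline was 0.94 (SE 0.24, adjusted p = 0.133).

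Slamf6 ran over 361, 877 and 997 CPM after pGal, 673, 860 and 1009 CPM after OVA, against 277, 525.6 and 723 CPM after saline, with differences from saline of 0.61 (adjusted p = 0.331) and 0.70 (adjusted p = 0.113; 0.0297 in DESeq2). Bcl6 ran over 39.2, 53.7 and 78.2 CPM after pGal, 20.8, 43.9 and 84.0 CPM after OVA, against 16.3, 31.5 and 47.4 CPM after saline, with differences from saline of 0.79 (adjusted p = 0.318) and 0.49 (adjusted p = 0.392). Each of these ranges overlapped those of the other groups. The mean of every member was higher after pGal and after OVA than after saline.

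Between pGal and saline 0 of 7 members passed in edgeR, and 5 had an unadjusted p under 0.05. DESeq2 called 1, Maf (0.96, adjusted p = 0.0181). Of all 14244 genes, 1 passed in edgeR (0.00702%), 1280 had an unadjusted p under 0.05 and DESeq2 called 169. OVA against saline passed for 2 of 7 members, against 1.54% of all genes. Between pGal and OVA 0 of 7 passed in edgeR, beside a background of 0%, with 2 at an unadjusted p under 0.05 and 0 by DESeq2. Cxcr5 stayed called between OVA and saline with any 1 library left out (adjusted p up to 0.0346). Sh2d1a lost its call without OVA 3 (adjusted p = 0.0724), OVA 5 (0.0602) or OVA 7 (0.0746), and without the 5 Cd79a-rich libraries (1.15, adjusted p = 0.0768), where Cxcr5 was at 1.77 (adjusted p = 0.0482). With all therapeutic libraries taken as labelled, Cxcr5 lost its call (1.60, adjusted p = 0.0775).

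**Figure D2:**
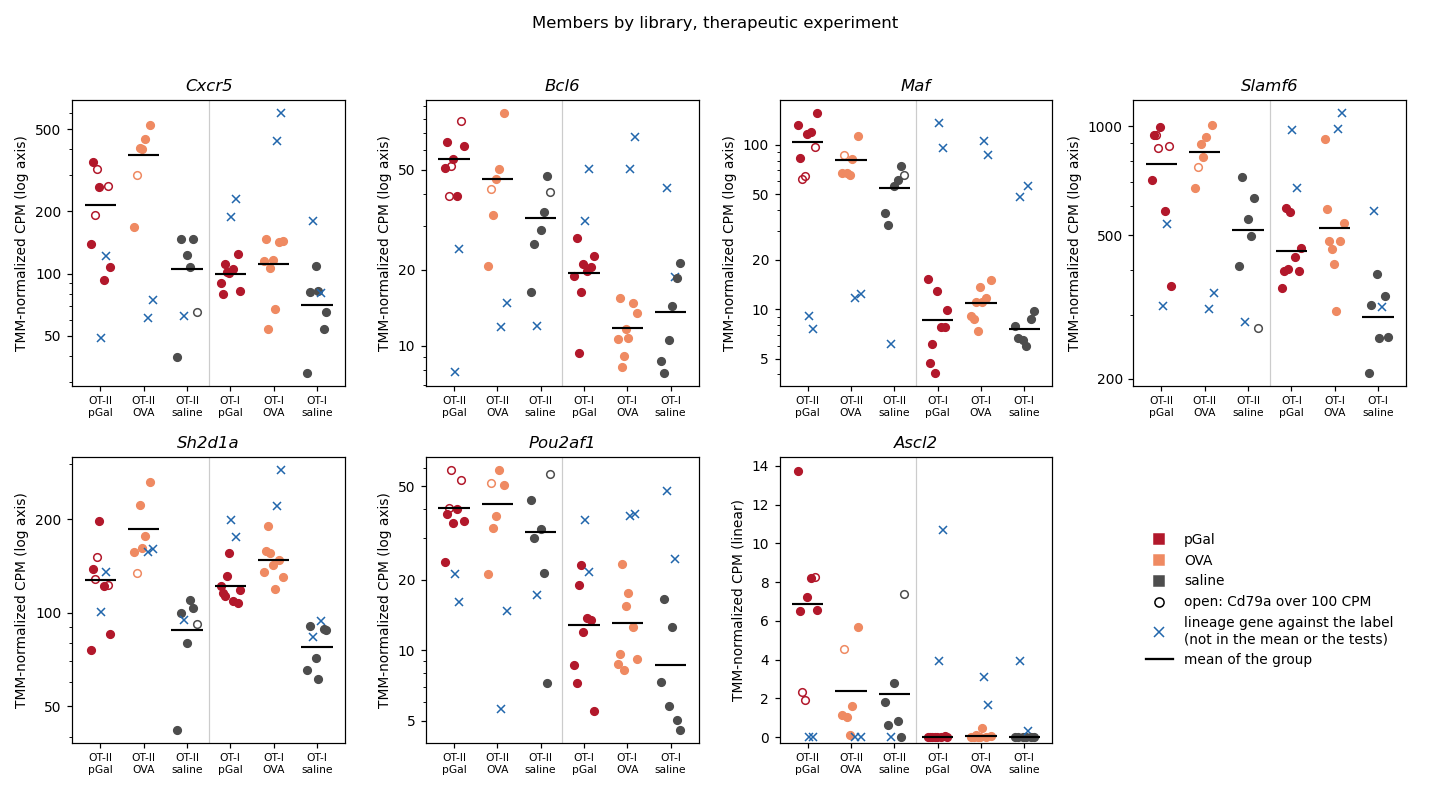
CPM of the 7 members (log axes, linear for Ascl2) in each therapeutic library, by labelled cell type and treatment, with means of the kept libraries as lines, open symbols for Cd79a over 100 CPM and crosses for the 11 libraries whose lineage gene went against the label. The crosses labelled OT-I reach 48.3 to 134.8 CPM of Maf, above all 22 kept OT-I libraries.

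Pathway genes in therapeutic OT-II cells gave few calls. After OVA against saline, Tox2 averaged 355 ± 140 CPM and 60.3 ± 33.6 CPM (SD, n = 6 each; 2.54, edgeR adjusted p = 0.00592), the only one of 10 transcription factors called. Pdcd1 (1.68, adjusted p = 0.017) and P2rx7 (1.77, adjusted p = 4.58e-04) rose and Tnfrsf4, the OX40 gene, fell by 1.36 (adjusted p = 0.0233). The cytokine gene Il4 rose by 2.38 (adjusted p = 0.021). Among 10 opponents 3 fell, with Il2ra, the high-affinity IL-2 receptor chain, lower by 2.27 (adjusted p = 0.0412) and Id2 by 1.37 (adjusted p = 0.0154). After pGal against saline no gene of the 6 lists was called, and the nearest were P2rx7 (1.08, adjusted p = 0.0537), Klf2 (−0.91, adjusted p = 0.0877) and Il4 (2.17, adjusted p = 0.0938). Summed regulatory T cell genes were at 570 to 1796 CPM after pGal, 1091 to 1735 CPM after OVA and 721 to 1223 CPM after saline, with Foxp3 at 5.12 to 40.7, 2.92 to 20.9 and 6.53 to 45.4 CPM. Their part in the members' differences was not tested.

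In therapeutic OT-I cells, Sh2d1a was the 1 member called by edgeR, after OVA against saline, and DESeq2 and RLE factors also called Slamf6 there. Sh2d1a ran over 107, 117 and 156 CPM after pGal, 119, 145 and 190 CPM after OVA, against 61.4, 79.7 and 90.4 CPM after saline. Both antigen groups lay wholly above saline. OVA exceeded saline by 0.91 (SE 0.16, adjusted p = 0.00476) and pGal by 0.63 (SE 0.15, adjusted p = 0.388; 0.66 with adjusted p = 0.0026 in DESeq2). Slamf6 ran over 357, 419 and 594 CPM after pGal, 309, 481 and 922 CPM after OVA, against 208, 290 and 391 CPM after saline, and its difference between OVA and saline was 0.82 (adjusted p = 0.0862; 0.00505 in DESeq2 and 0.0493 with RLE factors), or 0.91 (adjusted p = 0.0356) without OVA 5.

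Cxcr5 in these OT-I cells ran over 80.1, 101 and 124 CPM after pGal, 54.0, 116 and 147 CPM after OVA, against 33.2, 73.3 and 109 CPM after saline, and overlapped throughout (0.46, adjusted p = 0.734, and 0.61, adjusted p = 0.199, against saline). Bcl6 had medians of 20.2, 11.1 and 12.5 CPM after pGal, OVA and saline, and pGal differed from OVA by 0.74 (SE 0.23, unadjusted p = 0.00299, adjusted p = 1 in edgeR). Maf stayed between 4.10 and 15.2 CPM in all 22 libraries. OVA against saline passed for 1 of 6 members tested, where 0.686% of 14581 genes passed. Against saline after pGal, and between pGal and OVA, 0 of 6 passed in edgeR beside backgrounds of 0%, with 3 and 1 members at an unadjusted p under 0.05 and 1 and 0 called by DESeq2. Of the pathway lists 1 gene was called after OVA, Cd40lg, whose product licenses B cells, which fell by 2.09 (adjusted p = 5.34e-04).

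In the therapeutic experiment OT-II and OT-I cells after saline differed in Maf, Bcl6, Pou2af1, Slamf6 and Ascl2. Maf had a lowest, median and highest value of 32.4, 58.9 and 74.0 CPM in OT-II and 5.93, 7.27 and 9.68 CPM in OT-I cells, and the groups were far apart (2.85, SE 0.28, edgeR adjusted p = 3.13e-10). Bcl6 averaged 32.1 ± 11.1 CPM in OT-II and 13.6 ± 5.53 CPM in OT-I cells (1.24, SE 0.27, adjusted p = 0.00131), Pou2af1 32.0 ± 17.1 and 8.62 ± 4.82 CPM (1.90, SE 0.37, adjusted p = 2.94e-04) and Slamf6 516 ± 159 and 296 ± 66.0 CPM (0.79, SE 0.23, adjusted p = 0.0198), with SD over n = 6 libraries each. With Ascl2, 5 of 7 members were called, where 9% of 15747 genes were. Cxcr5 (0.56, adjusted p = 0.302) and Sh2d1a (0.18, adjusted p = 0.709) were not. Taken as labelled, with the 11 libraries in, no member and no gene was called.

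The pathway lists were higher in OT-II cells after saline in this experiment for 7 of 10 transcription factors, 6 of 11 receptors and 4 of 5 signals to B cells, and 4 of 10 opponents were lower. Of all 15747 genes, 722 were called higher and 696 lower. Zbtb7b among the transcription factors and Cd40lg among the signals are also CD4 lineage genes, so their direction between the cell types was given by the lineage. Il21, the helper cytokine gene, averaged 26.6 ± 7.03 CPM in OT-II and 0.522 ± 0.684 CPM in OT-I cells (SD, n = 6 each; 5.66, edgeR adjusted p = 1.16e-06). Tnfrsf4 differed by 4.43, and the log2 difference of Tbx21 was −2.82. In the prophylactic experiment the same lists had 3 of 10 transcription factors, 4 of 11 receptors and 2 of 5 signals higher in OT-II cells, and 5 opponents higher and 2 lower. Of all 14845 genes there, 1205 were called higher and 1486 lower. In the therapeutic interactions between cell types 0 of 7 members were called in edgeR and in DESeq2, with 0, 19 and 0 genes called in edgeR over pGal against saline, OVA against saline and pGal against OVA (0%, 0.121% and 0%), and 1, 2 and 2 members at an unadjusted p under 0.05.

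Between experiments, the response of Cxcr5 in OT-II cells to pGal was the 1 interaction called. The pGal minus saline difference of Cxcr5 was 2.06 higher in the prophylactic than in the therapeutic experiment (SE 0.52, adjusted p = 0.0464), 1 of 7 members where 0.8% of 15505 genes were called. The call sat at the threshold: it was lost in 9 of 14 fits with a prophylactic library left out (adjusted p up to 0.126), standing only without batch 2 saline 1, OVA 1, OVA 2, pGal 1 or pGal 2, and it stood at 2.49 (adjusted p = 0.0182) without the Cd79a-rich libraries. Slamf6 (0.81, adjusted p = 0.29) and Maf (0.74, adjusted p = 0.549) were not called there. For OVA against saline and pGal against OVA 0 of 7 members were called in edgeR, beside 0.0967% and 0.232% of genes, with 1 and 4 at an unadjusted p under 0.05 and 0 and 2 called by DESeq2. Levels between the experiments were not tested, since sorting medium, pooling of mice and table changed with the experiment and cannot be told apart from it.

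**Figure D3:**
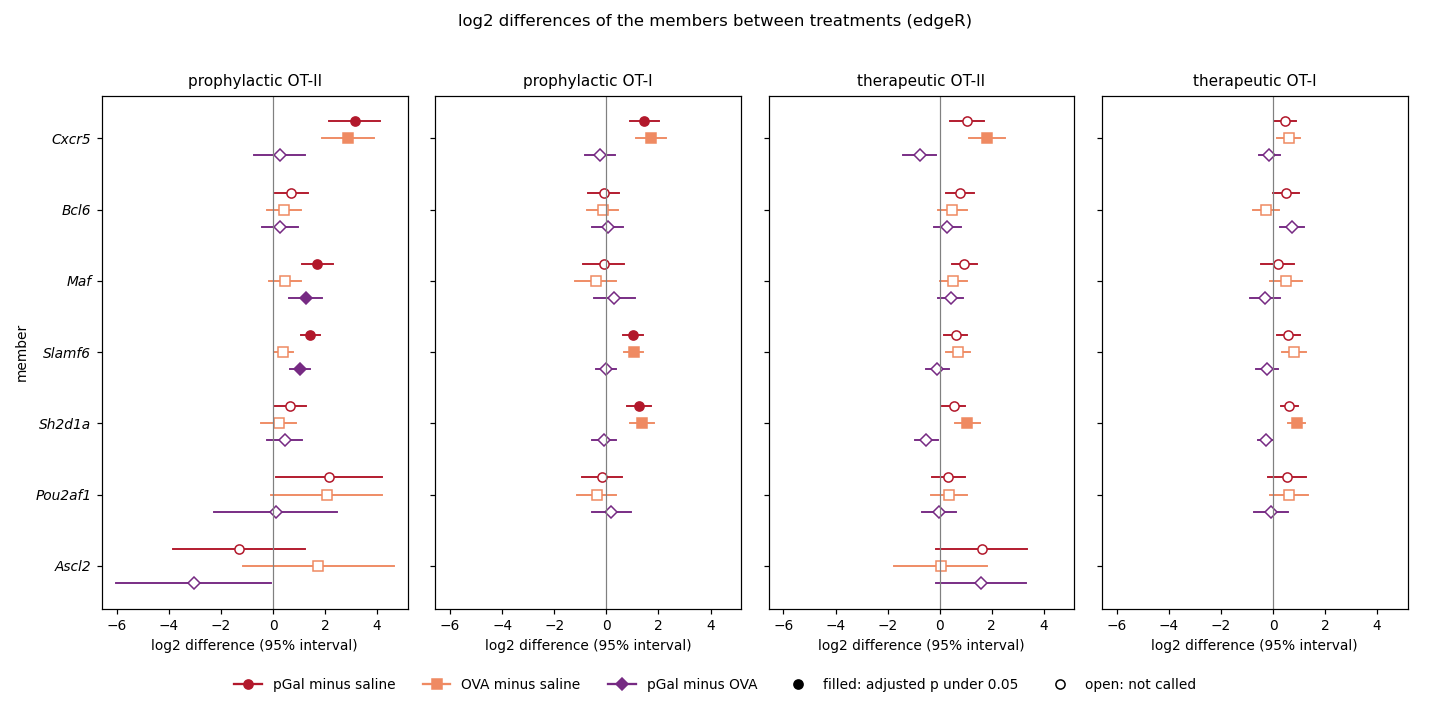
Log2 differences with 95% intervals of each member for pGal against saline, OVA against saline and pGal against OVA, by experiment and cell type, with filled symbols where the edgeR adjusted p is under 0.05. Cxcr5 in prophylactic OT-II cells has the largest called difference plotted (3.13 after pGal and 2.87 after OVA), and pGal against OVA is called only for Maf and Slamf6 in prophylactic OT-II cells.

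Pou2af1, the OCA-B gene, moved with B cell transcripts. In prophylactic OT-II cells it was at 25.3, 22.4, 152.5, 42.5 and 35.0 CPM after pGal, at 18.4, 14.6, 36.2 and 344.8 CPM after OVA, against 11.8, 8.85, 8.01, 40.8 and 24.0 CPM after saline. The highest library of each group was the one over 100 CPM of Cd79a. With all libraries the difference of pGal from saline was 2.16 (SE 0.93, adjusted p = 0.169), and without those 3 it was 1.07 (adjusted p = 0.00221), a smaller and called value. OVA against saline was 2.05 (adjusted p = 0.701) with them and 0.73 (adjusted p = 0.266) without them. Over the 34 OT-II libraries kept, Pearson's r of log2 CPM centred per table with Cd79a was 0.79 for Pou2af1, 0.40 for Bcl6, 0.23 for Cxcr5, −0.17 for Maf, −0.30 for Slamf6 and −0.56 for Sh2d1a. These are descriptions over libraries that share batches. In therapeutic OT-II cells, where Cd79a spanned a narrower range of 23.6 to 116 CPM, Pou2af1 averaged 40.5 ± 10.8, 42.1 ± 14.0 and 32.0 ± 17.1 CPM after pGal, OVA and saline and was not called (0.33, adjusted p = 0.787, and 0.36, adjusted p = 0.629). All 42 kept therapeutic libraries held over 10 CPM of Cd79a, so no set free of it could be compared. Pou2af1 was not called against saline in OT-I cells either. Its differences there were −0.17 after pGal and −0.36 after OVA in the prophylactic experiment (edgeR adjusted p = 0.851 and 0.622). In the therapeutic experiment they were 0.54 and 0.62 (adjusted p = 0.864 and 0.482).

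**Figure D4:**
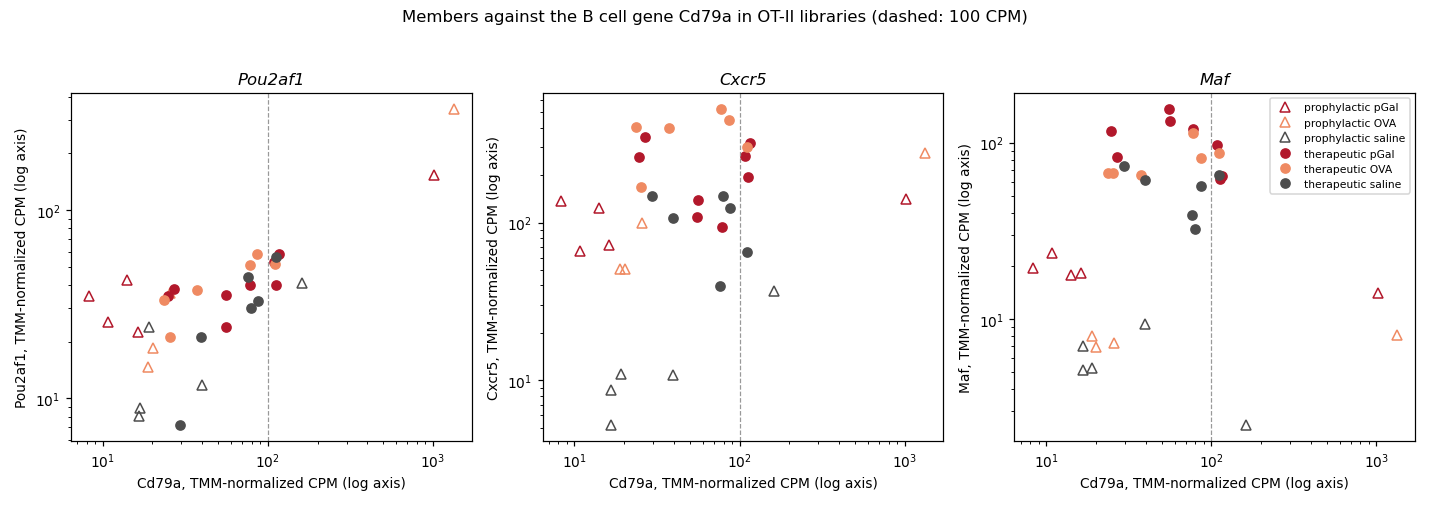
CPM of Pou2af1, Cxcr5 and Maf against Cd79a CPM in the kept OT-II libraries, both on log axes, with open triangles for the prophylactic and filled circles for the therapeutic experiment, coloured by treatment, and a dashed line at 100 CPM. Pou2af1 is highest, at 152.5 and 344.8 CPM, in the 2 prophylactic libraries with Cd79a of 1017 and 1333 CPM.

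Ascl2 was close to 0 in most libraries. In the prophylactic experiment it was at 0 counts in 6 of 14 OT-II libraries, with at most 24 counts, and in 14 of 15 OT-I libraries, with at most 3. By batch, 1 of 8 OT-II libraries of batch 1 and 5 of 6 of batch 2 were at 0. The 1 batch 2 library above 0 was OVA 2, with 12 counts and 0.347 CPM, the highest OVA value. In prophylactic OT-II cells Ascl2 differed from saline by −1.31 after pGal (edgeR adjusted p = 0.542) and by 1.74 after OVA (adjusted p = 0.815). Its difference of pGal from OVA was −3.05 (adjusted p = 0.325). In the therapeutic experiment Ascl2 was at 0 in 1 of 20 OT-II libraries, with up to 416 counts, and in 16 of 22 OT-I libraries, with up to 15. Therapeutic OT-II libraries had a lowest, median and highest value of 1.92, 6.90 and 13.8 CPM after pGal, 0.114, 1.37 and 5.70 CPM after OVA, against 0, 1.31 and 7.37 CPM after saline. These groups overlapped, and pGal differed from saline by 1.62 (SE 0.84, adjusted p = 0.585) and from OVA by 1.59 (SE 0.84, adjusted p = 0.672). After saline all OT-I libraries were at 0. Against a floor of 3 counts per OT-I library, the OT-II mean was at least 29.6-fold higher in the therapeutic experiment (edgeR adjusted p = 3.11e-05) and at least 4.59-fold higher in the prophylactic one (adjusted p = 0.0136, and 0.122 in DESeq2). Without saline 7 of the therapeutic OT-II libraries, at 7.37 CPM, the therapeutic mean was at least 15.97-fold higher. Without saline 2 of batch 1, at 0.394 CPM, the prophylactic mean was at least 3.76-fold higher. Of the 5 prophylactic OT-II saline libraries, 2 were at 0, both of batch 2. Ascl2 passed the filter on low counts in no fit of OT-I cells alone and so was not tested for treatment there.

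Across the same 34 OT-II libraries and 11836 genes with a mean of at least 1 CPM, the 3 genes most like each member were found by Pearson's r. Slamf6 was closest to Izumo1r (0.92), Icos (0.90) and Pdcd1 (0.90), and Maf to Cd200 (0.81), Psen2 (0.81) and Ikzf2 (0.80). Cxcr5 was closest to Sypl (0.88), Ttf2 (0.85) and Akap12 (0.85), and Sh2d1a to Rab37 (0.89), Cep19 (0.87) and Mospd3 (0.87). Pou2af1 was closest to Fcrl1 (0.91), Cd38 (0.90) and H2-Eb2 (0.87), all 3 expressed by B cells. Bcl6 (Klrb1c, 0.76) and Ascl2 (Fam20a, 0.71) had less similar neighbours. Among the members, Sh2d1a and Slamf6 were most alike (0.71), then Cxcr5 and Slamf6 (0.68). Sh2d1a (0.74) and Slamf6 (0.71) also went with Cd4 about as closely as with each other. For the other members r with Cd4 was 0.39 for Cxcr5, 0.07 for Bcl6, 0.05 for Maf, −0.25 for Pou2af1 and −0.35 for Ascl2. The part of the Cd4 level of a library in these likenesses was not tested.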

How the data were processed

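Bulk RNA-seq libraries (SmartSeq v4 cDNA, Nextera, paired-end) of 82 sorted T cell samples were used as estimated counts per gene that the authors deposited in 3 tables. Per the submitters' processing notes, bcl2fastq, kallisto 0.46.1 and GRCm38 were used; no source used here says how transcript estimates became gene values. The deposited estimated counts were rounded to whole numbers.

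Genes were filtered by filterByExpr, scaled by TMM and tested with edgeR 4.0.16 (robust quasi-likelihood, R 4.3.3), with batch as a term in prophylactic fits, Benjamini-Hochberg adjustment over all genes and calls at 0.05. Printed CPM use TMM factors over all 82 libraries. Differences are log2 with 95% intervals from the t distribution of each fit. The steps were tested on simulated data. Alternatives were DESeq2 1.42.0, RLE factors, no filter, a replicate block, single batches, libraries left out in turn, libraries without Cd79a over 100 or 10 CPM, and all therapeutic libraries as labelled. Added after seeing the data were fits without libraries holding over 100 CPM of the other lineage's gene.

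The 7 members and all lists were chosen with earlier results of these data known. Every member that passed the filter was tested in each comparison, but not every difference is printed. From each pathway list the called genes with the largest differences were named, at most 2 higher and 2 lower, or the gene with the smallest p where none was called; a few were left out for length. Likeness used log2(CPM + 1), centred per table. Of 268 pairs of libraries compared within groups, none matched within sampling noise. Intervals and floors cover the spread or counting error only.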

Additional observations from a re-analysis of the deposited data

Results flagged for a closer look

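Within groups of 4 to 8 libraries, Dixon's test gave 14 flags over 81 sets of 1 member in 1 group. Its chance rate of about 1 in 20 sets, or about 4 here, assumes normal values from 1 source. These CPM were pooled over batches, and for Ascl2 a single library above 0 is flagged whatever its value. The 14 flags are therefore not read against that rate.

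Several were in libraries rich in Cd79a. Saline 1 of prophylactic batch 2 OT-I cells (Cd79a 314 CPM) had Cxcr5 at 71.7 CPM (others 16.4 to 28.4), Bcl6 at 29.8 CPM (others 8.59 to 11.5) and Pou2af1 at 76.1 CPM (others 13.2 to 19.9). OVA 2 of batch 2 OT-I cells (Cd79a 101 CPM) had Bcl6 at 19.8 CPM (others 8.09 to 11.5). In OT-II cells, Pou2af1 was at 152.5 CPM in pGal 3 of batch 1 (others 22.4 to 42.5) and at 344.8 CPM in OVA 2 of batch 2 (others 14.6 to 36.2), and Cxcr5 at 36.6 CPM in saline 1 of batch 2 (others 5.22 to 10.9). The part of B cells in these values was not tested.

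The others were not. Library pGal 2 of batch 1 OT-I cells, which held 205.54 CPM of Cd4, had Maf at 8.13 CPM (others 2.22 to 3.24) and Ascl2 at 0.0539 CPM where the others were at 0. Slamf6 was at 289.8 CPM in saline 2 of batch 2 OT-II cells (others 167 to 185) and at 922 CPM in OVA 10 of therapeutic OT-I cells (others 309 to 591). Ascl2 was at 0 CPM in OVA 1 of batch 2 OT-II cells (others 0.322 to 0.347), a batch where 5 of 6 OT-II libraries were at 0. In therapeutic OT-I cells Ascl2 was at 0.481 CPM in OVA 5 (others at most 0.0873) and at 0.0760 CPM in pGal 8 (others at most 0.0275).

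The response of Cxcr5 to pGal against saline in OT-II cells differed between the experiments, by 2.06 (log2, prophylactic minus therapeutic; edgeR adjusted p = 0.0464). Cxcr5 was above the saline mean in 5 of 5 prophylactic and 7 of 8 therapeutic pGal libraries. The call was lost in 9 of 14 fits with a prophylactic library left out, with no filter, with libraries as labelled and with the replicate block.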

How the results depend on the processing

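No called value changed sign under any alternative run. Counts of members called moved as follows. Without libraries over 100 CPM of Cd79a there were 5 for prophylactic OT-II pGal against saline and for OT-II against OT-I after saline, 1 for therapeutic OT-II OVA against saline, and 2 and 1 for the prophylactic interactions of pGal with saline and with OVA. Without libraries over 100 CPM of Cd79a or the other lineage's gene there were 5 for prophylactic OT-II and 1 for OT-I pGal against saline. Without libraries over 10 CPM of Cd79a there were 0 for both OT-I comparisons with saline. Batch 2 alone gave 0 in the 3 OT-II comparisons and 1 for OT-I OVA against saline, and batch 1 alone 0 for OT-II OVA against saline and 1 for pGal against OVA, and each batch 2 for OT-I pGal against saline. With no filter there was 1 for prophylactic OT-II pGal against OVA and 0 for the experiment interaction. DESeq2 gave 2 for prophylactic OT-II against OT-I after saline, where Ascl2 lost its call, 3 for therapeutic OT-II OVA against saline, 1 for therapeutic pGal against saline in OT-II and in OT-I cells, 2 for therapeutic OT-I OVA against saline (2 with RLE factors too), 2 and 1 for the prophylactic interactions and 2 for the experiment interaction of pGal against OVA. As labelled there were 1 for therapeutic OT-II OVA against saline, 0 between cell types after saline and 0 for the experiment interaction. Without OT-I libraries holding Cd4, or without OT-II libraries holding Cd8a, the prophylactic interaction of pGal with saline had 1, and without the OT-II ones pGal against saline had 4 in OT-II cells.

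Same-numbered libraries of a cell type had correlations over 0.1 in 3 of 15, 3 of 13, 6 of 15 and 4 of 13 pairs. With the replicate block 7 of 24 single calls were lost and these comparisons had 0 left: Cxcr5 (OVA against saline), Maf and Slamf6 (pGal against OVA) in prophylactic OT-II cells, Cxcr5 and Sh2d1a in therapeutic OT-II and Sh2d1a in OT-I cells (OVA against saline), and Cxcr5 between experiments.

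With single libraries left out, the counts ran from 3 to 4, 0 to 1 and 1 to 2 in prophylactic OT-II cells, from 1 to 3 for therapeutic OT-II and 1 to 2 for therapeutic OT-I OVA against saline, 2 to 3 between prophylactic cell types and 0 to 1 for prophylactic and experiment interactions.

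Counts over all genes moved too. In DESeq2 they were 2490, 146 and 914 for pGal against saline, OVA against saline and pGal against OVA in prophylactic OT-II cells (edgeR 1655, 23 and 264), 1153, 1356 and 1 in OT-I cells (463, 744 and 0), 169, 728 and 29 in therapeutic OT-II cells (1, 219 and 0) and 19, 365 and 4 in OT-I cells (0, 100 and 0). DESeq2 called 398, 33 and 252 genes in the prophylactic interactions (173, 5 and 75), 7, 98 and 3 in the therapeutic ones (0, 19 and 0) and 271, 163 and 171 between experiments (124, 15 and 36). Batch 2 alone called 0, 0 and 0 in OT-II cells and 19 for OT-I OVA against saline, and batch 1 alone 0 for OT-II OVA against saline, 26 for OT-I pGal against saline and 4 for OT-I pGal against OVA. Taken as labelled, the therapeutic tables called 0 genes for pGal and 69 for OVA against saline in OT-II cells, 26 for OVA in OT-I cells, and 0 between cell types (1418 without the 11 libraries). Without Cd79a-rich libraries there were 592 for prophylactic OT-II pGal against OVA, 209 and 488 for OT-I cells against saline, 0 and 87 for therapeutic OT-II cells against saline and 356 and 230 for the interactions, and below 10 CPM of Cd79a 3 and 1 for OT-I cells. With no filter there were 0 and 127 for therapeutic OT-II pGal and OVA against saline, 47 for OT-I OVA, 45 for the prophylactic interaction of pGal with OVA and 7 for the therapeutic one of OVA with saline, and RLE factors gave 14 for therapeutic OT-II pGal against saline and 12 for that interaction. As labelled, that interaction had 0 and the experiment interactions 63, 1 and 6. Without libraries over 100 CPM of Cd79a or the other lineage's gene, OT-I cells had 60 and 312 against saline. The replicate block gave 0 and 49 for prophylactic OT-II OVA against saline and pGal against OVA, 242 and 494 for OT-I cells and 65 and 24 for therapeutic OVA against saline in OT-II and OT-I cells. It also gave 11 for the prophylactic interaction of pGal with OVA, 5 for the therapeutic one of OVA with saline, and 66 and 0 for the experiment interactions of pGal with saline and with OVA. With single libraries left out the prophylactic OT-II counts ran from 1145 to 1999, 6 to 28 and 70 to 453, and the OT-I counts against saline from 102 to 515 and 316 to 888, and those of therapeutic OVA against saline from 64 to 342 in OT-II and 28 to 466 in OT-I cells, with 0 to 11 for OT-II pGal against saline. The prophylactic interactions of OVA with saline and of pGal with OVA ran from 0 to 6 and 0 to 217.

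The cause of these moves was not tested, and single batches also held fewer libraries. Fits without libraries over 10 CPM of Cd79a could not be made in OT-II cells or in therapeutic OT-I cells, where no comparison was left. Ascl2 had the lowest counts of the members, and its floor of 3 counts per library was a chosen setting. Whether depth set its values was not tested.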
